A study of Mus musculus with 12 samples.

Results

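CD4+ T cells activated through the T cell receptor in the presence of metformin and FK506 together were compared with the same cells activated without drug. Both groups held splenic CD4+ T cells of wild type C57BL/6 mice, aged 7 weeks by the labels, that had been cultured with anti-CD3 at 0.5 µg/ml for 3 days. The 3 Control samples received no drug, and the 3 Metformin+FK506 samples, called the combination below, received both. These are 6 of the 12 samples of the series, and the others (3 with metformin alone and 3 with FK506 alone) are used only to show where the combination differed from a single drug. Genes were taken where FPKM (fragments per kilobase of transcript, scaled to library size) reached 0.5 in at least 3 of the 6 samples, which left 14500 of the 45777 genes listed. A gene below 0.5 FPKM in all 3 samples of a group passed only through the other group and so had to differ. Drug doses for these cultures are not given in the sources used here. Nothing says that the 3 samples of a group came from separate mice or cultures, so p-values measure only the spread between these samples. The CD4+ cells were enriched with magnetic beads, and a culture of this kind can still hold other spleen cells.

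FK506 (tacrolimus) binds the small protein FKBP12 and the complex blocks calcineurin, the phosphatase that lets NFAT transcription factors enter the nucleus after T cell receptor signalling. NFAT together with AP-1 drives cytokine genes, and activated T cells then grow, make ribosomes, divide and change their surface receptors. Metformin is an antidiabetic drug that lowers mitochondrial respiration and is widely used to activate the energy sensor AMPK.

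The reads counted ran from 48806123 to 57284196 in the Control samples and from 43402632 to 64290105 in the combination samples. The 10 highest genes took 5.97% to 6.03% of reads in Control and 4.54% to 4.79% with both drugs, and genes of the mitochondrial genome took 1.68% to 1.72% and 2.75% to 3.02%. In edgeR's quasi-likelihood test, 6049 genes were higher in the combination (41.7% of those tested) and 5760 were lower (39.7%) at an adjusted p under 0.05. A log2 fold change of at least 1 in size was also reached by 2801 of the higher and 2512 of the lower genes. The tails were unequal, since 1118 genes rose and 341 fell by at least 3 on the log2 scale. Of the genes tested, 1308 passed the filter only through the combination and 403 only through Control. Fitted folds of genes near 0 in a group depend on few reads. FPKM values of the groups did not overlap for 83.2% of genes, 7163 above and 4896 below Control. With so many genes changed, a list whose members mostly passed the test is not unusual for that alone, and the direction and size of the changes carry the description.

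The split depended on the scale. The TMM normalization of the main test put 51.2% of the called genes in the higher direction, with a median log2 fold change of 0.02 over all genes tested. On the authors' FPKM values (limma, log2(FPKM + 1)) the share was 59.6% and the median 0.17, and on their TPM values (length-scaled transcript shares, an alternative added after seeing the data) 70.8% and 0.43. Changes smaller than about these shifts can turn direction between scales. Each gene said below, by name and with its values, to rise or fall against Control kept its direction and its call on all 3 scales. Counts over lists are those of the TMM-scaled test, and several of them differed on the other scales.

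**Figure D1:**
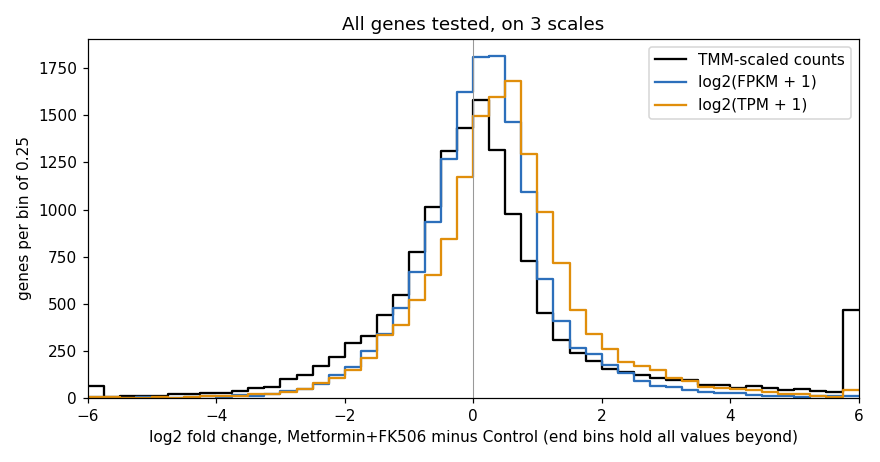
Number of tested genes (vertical axis) per bin of log2 fold change, combination minus Control (horizontal axis), on TMM-scaled counts (black), log2(FPKM + 1) (blue) and log2(TPM + 1) (orange). The 3 curves have medians of 0.02, 0.17 and 0.43, so the TPM curve lies to the right of the others.

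RNA of the labelled cell type was present in both groups. The combination samples also carried RNA of macrophage markers, most of which the Control samples nearly lacked. The T cell receptor chain gene Cd3e had FPKM values of 156, 150 and 151 in Control and 241, 248 and 238 with both drugs. The coreceptor gene Cd4 had 143, 139 and 139 against 254, 227 and 244. Both rose, Cd3e by 0.49 and Cd4 by 0.60 on the log2 scale. Over the 16 genes of the T cell receptor complex and its proximal signaling, 3 rose and 10 fell with a median of -0.21, but on the TPM scale 9 rose and 5 fell, so the direction of the list as a whole was not settled. The adhesion receptor gene Cd2 fell on every scale, from 428, 420 and 420 to 195, 195 and 199.

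Macrophage genes separated the groups widely. The scavenger receptor gene Marco had FPKM values of 0.059, 0 and 0 in Control and 105, 102 and 96.1 in the combination. Lyz2, the lysozyme of myeloid cells, had 0.040, 0 and 0.066 against 483, 525 and 610. Adgre1, which encodes the macrophage surface protein F4/80, was 0 in all 3 Control samples and 12.2, 11.9 and 12.8 with both drugs. The groups did not come near each other for any of these genes. Of 14 macrophage markers 11 were tested and 11 were higher, but 9 of them entered the test only through the combination samples and so had to differ. The summed FPKM of the list ran from 6.57 to 6.70 in Control and from 819 to 937 with both drugs, and Clec4f, a marker of liver macrophages, stayed at 0 in the combination.

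The genes of red pulp macrophages, the splenic cells that recycle iron from old red cells, included the largest fitted rise. Slc40a1 encodes ferroportin, the iron exporter, and went from 0 in every Control sample to 65.6, 66.3 and 65.3 FPKM, at least 3786-fold higher when each Control library is set to a floor of 3 counts. Spic, the transcription factor of red pulp macrophages, went from 0 in every Control sample to 28.1, 24.9 and 28.9, at least 589-fold higher. Hmox1, which breaks down heme, rose from 8.42, 8.67 and 8.23 to 507, 493 and 519 FPKM. Ferritin stores iron, and its light chain gene Ftl1 showed the largest rise in FPKM of any gene tested, from 496, 509 and 488 to 3603, 3816 and 3957 (log2 fold change 2.75 ± 0.048, SE, edgeR adjusted p = 7.31e-13). The heavy chain gene Fth1 rose from 200, 203 and 196 to 2662, 2845 and 2871. The list had 10 genes, 6 of them tested only because of the combination samples, and its exception was the transferrin receptor gene Tfrc, by which dividing cells take up iron, which fell from 82.7, 92.0 and 93.8 to 20.6, 22.3 and 20.7.

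The other genes with the largest rises were of the same kinds. Among genes reaching 10 FPKM, the 10 largest rises in log2 fold change were Slc40a1, Mmp12, Clec4n, Pla2g7, C1qc, C1qa, Epb41l3, Adgre1, Il12b and Treml4, all of them at 3 counts or fewer in every Control sample. Mmp12, an elastase of macrophages, reached 40.7, 38.1 and 44.6 FPKM and was at least 2527-fold higher. Clec4n encodes the fungal receptor dectin-2 and reached 98.0, 96.2 and 108. The complement genes C1qa and C1qc, made mainly by macrophages, reached 40.5, 44.9 and 40.3 and 43.1, 46.1 and 53.1. In the wider list of complement and lipid handling 15 of 15 tested genes were higher, 9 of which passed the filter only through the combination, among them Apoe (4.17, 3.67 and 3.26 to 94.4, 109 and 99.6) and the lipoprotein lipase gene Lpl (0.027, 0.014 and 0.024 to 50.2, 47.0 and 47.5).

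Lysosomal genes, which T cells also express, all passed the filter in this comparison. Of 21, 20 rose with a median log2 fold change of 1.89. Psap, the precursor of the saposins that help digest sphingolipids, rose from 100, 94.9 and 97.0 to 911, 857 and 904 FPKM. The protease gene Ctsb rose from 37.9, 37.1 and 38.7 to 216, 210 and 219. Npc2, which carries cholesterol out of lysosomes, went the other way, from 234, 229 and 228 to 115, 106 and 113. All 15 tested genes of pattern recognition and the inflammasome were higher, 8 of them tested only because of the combination samples, including the DNA sensor gene Tlr9 (0.22, 0.19 and 0.27 to 11.8, 9.91 and 10.6) and the fungal receptor gene Clec7a (0.14, 0.071 and 0.17 to 50.2, 47.0 and 48.2).

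Genes of B cells and of antigen presentation rose by less than the macrophage markers (median 9.45), and most were already measurable in Control. All 13 B cell markers were tested and all 13 rose, with a median of 2.90, though 2 of them reached the filter only through the combination. The B cell receptor signalling gene Cd79a went from 14.3, 12.5 and 12.5 to 156, 152 and 160 FPKM (log2 fold change 3.39 ± 0.056, SE), and Ms4a1, which encodes CD20, from 3.54, 4.31 and 3.61 to 30.9, 33.6 and 32.4. The 11 genes of MHC class II, the molecules that present peptides to CD4+ T cells, were all higher in the main test with a median of 3.49 (10 of them on the FPKM and TPM scales), 1 of them reaching the filter only through the combination. H2-Aa went from 27.0, 28.0 and 27.4 to 621, 591 and 639, the invariant chain gene Cd74 from 101, 120 and 111 to 1515, 1430 and 1605, and the class II master regulator gene Ciita from 1.33, 1.52 and 1.53 to 48.1, 40.5 and 46.0.

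Immunoglobulin genes were found in both directions. The genes of unswitched B cells rose, Ighm from 113, 126 and 117 to 1193, 1107 and 1104 FPKM and Ighd from 0.99, 0.97 and 0.91 to 83.4, 76.3 and 83.8. The kappa light chain gene Igkc rose from 105, 132 and 120 to 1257, 1008 and 1178. Among the switched isotypes, Ighg1 fell from 10.3, 12.5 and 11.2 to 0.29, 0.30 and 0.17. Ighe fell from 1.40, 1.72 and 1.31 to 0 in every combination sample, at least 47.0-fold lower. Ighg2b (0.92, 1.30 and 1.10 against 1.07, 1.49 and 2.18) and Ighg3 (3.34, 3.13 and 2.90 against 3.95, 3.23 and 4.92) did not pass the test (edgeR adjusted p = 0.32 and 0.36). In the whole list 5 of 12 tested genes rose and 5 fell, near the shares of 41.7% and 39.7% over all genes, 3 of the 12 having entered the test only through Control, and on the TPM scale 7 rose and 5 fell.

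With both drugs, the markers of further cell types named here stood at lower levels than Marco and Lyz2. Of 11 neutrophil markers 7 were tested, 6 of them only because of the combination, and S100a8 went from 0 in every Control sample to 5.95, 8.36 and 5.87 FPKM, while Ly6g fell from 2.84, 3.09 and 3.15 to 0.16, 0.055 and 0.55 (log2 fold change -3.86, and -5.03 without the third combination sample). The endothelial cadherin gene Cdh5, which passed the filter only through the combination, rose from 0.036, 0.045 and 0.061 to 9.60, 8.80 and 10.6. Of 8 basophil and mast cell markers, Mcpt8, Cpa3, Fcer1a, Ms4a2 and Prss34 were at 0 in all combination samples. The 2 that were tested, both only because of the combination, were higher, the stem cell factor receptor gene Kit (0.066, 0.13 and 0.064 to 15.7, 15.7 and 16.3) and the transcription factor gene Gata2 (0.082, 0.066 and 0.052 to 1.56, 1.53 and 1.08). In bulk RNA, more cells of a type and more RNA per cell cannot be told apart. The part that these other cells play in each difference described below was not tested.

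**Figure D2:**
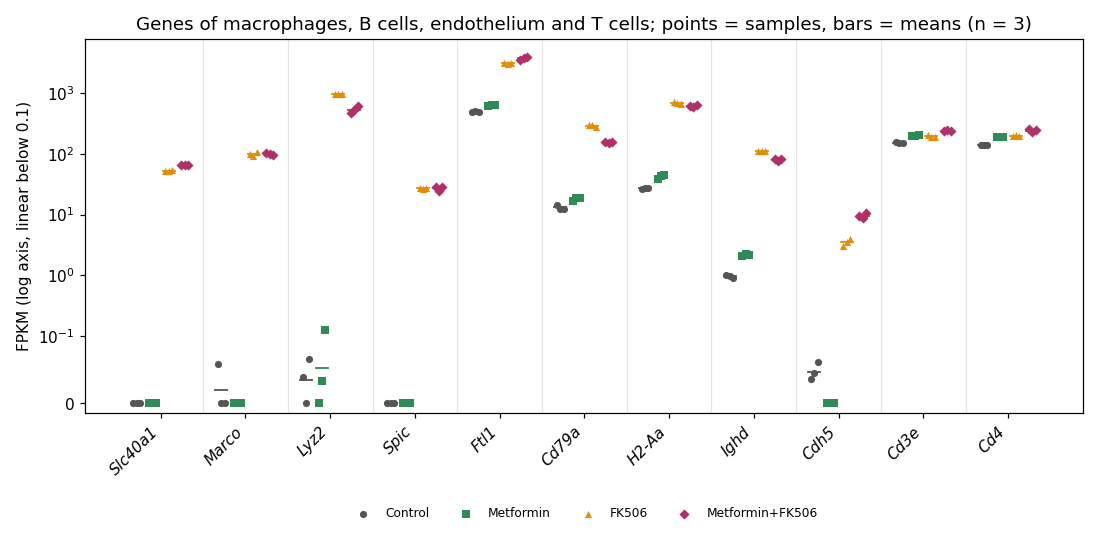
FPKM per sample (vertical axis, log scale that is linear below 0.1) for 11 genes of macrophages, B cells, endothelium and T cells, with points for the 3 samples and bars for the mean of each of the 4 groups. Slc40a1, Marco, Lyz2 and Spic lie at or near 0 in Control and metformin and between 24.9 and 993 with FK506 or both drugs, while Cd3e and Cd4 lie between 139 and 254 in Control and the combination.

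T cell cytokine genes were lower. Of 16 cytokine genes tested 15 fell (14 on the TPM scale). Of the 16, 6 reached the filter only through Control and so had to be lower. Il24, an IL-10 family cytokine, showed the largest fitted fall of any gene tested. It went from 95.6, 104 and 97.0 FPKM to 0 in every combination sample, at least 2361-fold lower. Without the second combination sample the fitted log2 fold change was -15.66 for Il24, and that of Serpinf1 was lower at -15.76. The type 2 cytokine Il13 fell from 279, 272 and 278 to 1.18, 1.61 and 2.02 (log2 fold change -7.62 ± 0.097, SE, edgeR adjusted p = 1.19e-13). Il4 fell from 43.8, 39.0 and 43.1 to 0, 0.48 and 0.44, a log2 fold change of -7.14 that was -7.80 without the second combination sample. Il5 fell from 10.5, 10.3 and 9.53 to 0.023, 0.16 and 0.37, a log2 fold change of -5.97 that became -6.72 when the third combination sample was left out. Lif, a cytokine of the IL-6 family, fell from 132, 135 and 133 to 3.69, 2.84 and 3.01. Lta, which encodes lymphotoxin alpha, fell from 234, 224 and 224 to 25.1, 22.6 and 28.0. Tnfsf11, the osteoclast factor RANKL, was the cytokine that rose, from 12.7, 11.8 and 12.3 to 16.8, 19.9 and 18.4.

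Il2, the growth factor of T cells and the best known calcineurin target, was low at day 3 in both groups, at 4.45, 3.85 and 3.98 FPKM in Control and 0.64, 0.85 and 1.65 with both drugs (log2 fold change -2.16 ± 0.30, SE, edgeR adjusted p = 3.24e-05). Csf2, which encodes GM-CSF, fell from 21.3, 21.4 and 20.4 to 1.29, 1.37 and 1.01 (-4.22 ± 0.12). The promoters of Il2 and Csf2 are shown because they are textbook sites of NFAT and AP-1. Each sequence is the 250 bases before the RefSeq gene start in build GRCm38.p6, 5′ to 3′ on the strand of the gene (minus), at chr3:37125955-37126204 for Il2 and chr11:54249900-54250149 for Csf2, and capitals mark the NFAT core (GGAAA, or TTTCC for the other strand).
Il2: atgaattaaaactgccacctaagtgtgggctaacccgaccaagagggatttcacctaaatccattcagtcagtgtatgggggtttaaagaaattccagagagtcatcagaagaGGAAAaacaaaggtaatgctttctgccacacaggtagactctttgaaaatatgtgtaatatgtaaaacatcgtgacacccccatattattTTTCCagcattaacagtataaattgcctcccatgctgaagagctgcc
Csf2: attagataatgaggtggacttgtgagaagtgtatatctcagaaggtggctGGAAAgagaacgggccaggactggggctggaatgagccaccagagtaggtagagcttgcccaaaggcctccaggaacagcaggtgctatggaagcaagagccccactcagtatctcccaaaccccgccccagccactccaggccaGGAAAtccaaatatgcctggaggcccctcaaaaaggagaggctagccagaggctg
Each window held 2 NFAT cores and no exact match to the AP-1 letters TGANTCA (N is any base). RefSeq windows of this length were found for 10314 of the tested genes, 13113 windows in all. The NFAT core stood in 54.3% of them, in 52.97% of the windows of higher genes and in 55.8% of those of lower genes, and the AP-1 letters stood in 4.60%, 4.94% and 4.49%. In the 13 windows found for 12 of the T cell cytokine genes that fell, the NFAT core stood in 12 (92.3%) and the AP-1 letters in 2 (15.4%), which is given as a description of a list chosen with results known. The MYC-type E-box (CACGTG) stood in 8.13% of all windows, 8.06% of those of higher genes and 8.11% of those of lower genes. A match is a description of letters and not a binding site.

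**Figure D3:**
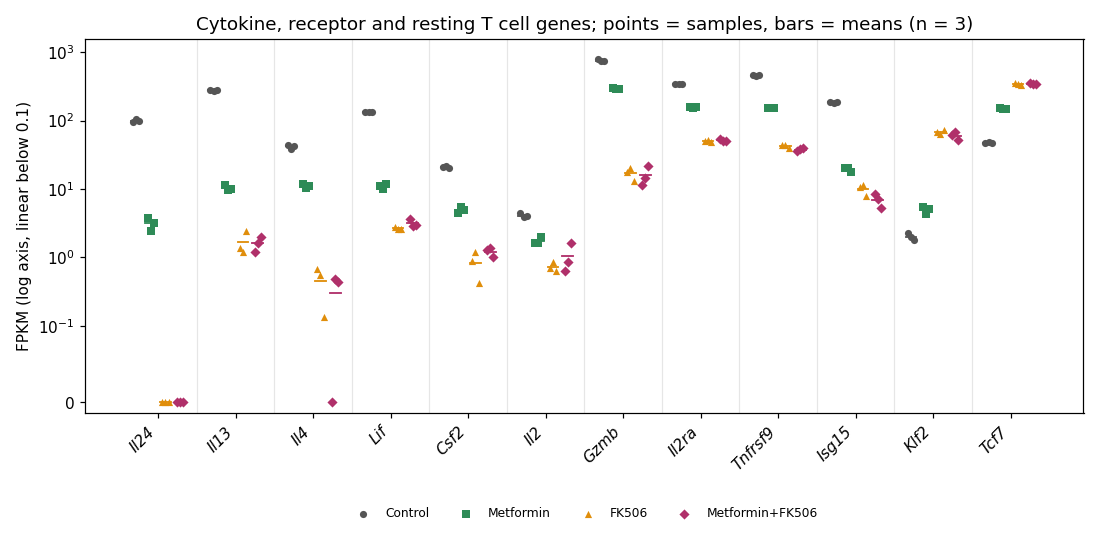
FPKM per sample (vertical axis, log scale that is linear below 0.1) for 12 cytokine, receptor, interferon-stimulated and resting T cell genes, with points for the 3 samples and bars for the mean of each of the 4 groups. Il24 is at 0 with both drugs against 95.6 to 104 in Control, and Klf2 and Tcf7 are the genes that lie above Control.

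Several receptors and regulators of activation were lower. Il2ra, the high-affinity IL-2 receptor chain CD25, went from 339, 342 and 338 to 53.6, 50.04 and 50.7 FPKM (log2 fold change -2.91 ± 0.040, SE). Cish, a feedback inhibitor that STAT5 induces, went from 160, 164 and 162 to 13.02, 13.7 and 14.3. In the list of the IL-2 receptor and STAT5 feedback 11 of 12 genes were lower in the main test (9 on the FPKM scale, and 9 lower with 3 higher on the TPM scale), and Socs2 rose (22.04, 22.8 and 21.9 to 29.1, 28.6 and 26.9). Of 14 costimulatory genes of the TNF superfamily, 1 of them tested only because of the combination, 6 rose and 6 fell (8 and 6 on the TPM scale), near the shares of 41.7% and 39.7% over all genes. Tnfrsf9, which encodes 4-1BB, fell from 461, 446 and 456 to 35.6, 37.8 and 39.4, Tnfrsf4, which encodes OX40, from 398, 417 and 394 to 74.5, 68.2 and 69.7, and Tnfrsf8, which encodes CD30, from 33.5, 33.9 and 33.0 to 1.12, 0.95 and 0.74. Cd27, a receptor of resting T cells, rose from 38.4, 36.3 and 34.9 to 119, 113 and 127, and Cd40, found on B cells and macrophages, from 2.14, 2.28 and 1.90 to 21.7, 19.8 and 21.2. Inhibitory checkpoint genes mostly fell, 8 of 12, though 5 fell and 4 rose on the TPM scale. Lag3, which binds MHC class II, went from 172, 162 and 170 to 32.1, 34.8 and 36.8, and Cd200, whose product quiets myeloid cells, from 157, 152 and 154 to 45.01, 43.98 and 45.01.

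Genes of the cytotoxic programme went in both directions. The granule protease gene Gzmb fell from 780, 730 and 750 to 11.5, 14.6 and 22.01 FPKM (log2 fold change -5.75 ± 0.18, SE), the perforin gene Prf1 from 7.38, 6.70 and 6.20 to 1.27, 1.31 and 1.92, and the granule gene Nkg7 from 83.7, 78.5 and 83.2 to 15.4, 14.1 and 15.8. The granzyme gene Gzmk rose from 0.10, 0.23 and 0.22 to 7.20, 6.36 and 5.31, and Eomes, a transcription factor of memory and cytotoxic lymphocytes, from 1.17, 1.44 and 1.06 to 11.96, 12.4 and 11.7. With these genes included, 3 of the 9 tested CD8 and NK markers were higher and 4 lower, against 41.7% and 39.7% over all genes. On the TPM scale 4 were higher and 3 lower. Gzmk passed the filter only through the combination.

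Outside the lists, the rule for the 10 largest falls in log2 fold change among genes reaching 10 FPKM gave, besides Il24, Il13 and Il4, the genes Osr2, Serpinf1, Cth, Fam71b, Crabp2, Lama5 and Kremen2. Serpinf1, which encodes the secreted factor PEDF, went from 82.9, 77.3 and 77.8 FPKM to 0, 0.18 and 0. The zinc finger factor gene Osr2 went from 14.5, 15.04 and 14.8 to 0, 0.029 and 0. Cth, the enzyme that makes cysteine from cystathionine, went from 23.8, 24.7 and 23.3 to 0.26, 0.16 and 0. Crabp2 carries retinoic acid to its nuclear receptor and went from 56.6, 52.2 and 47.95 to 0.79, 0.90 and 0. Lama5, a laminin chain, went from 21.1, 20.3 and 19.96 to 0.36, 0.26 and 0.21, and Kremen2, a receptor in Wnt inhibition, from 24.4, 24.998 and 23.6 to 0.57, 0.30 and 0.18. All 7 of these genes were below 1 FPKM in every combination sample. Osr2, Serpinf1, Cth, Fam71b and Lama5 were below 0.5 FPKM there, so they passed the filter only through Control and had to be lower.

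Of 14 factors linked to NFAT 9 rose and 5 fell (10 and 4 on the TPM scale), with a median of 0.30, and 1 of them was tested only because of the combination. Irf4, which scales with receptor signal strength, fell from 209, 201 and 203 to 43.0, 40.9 and 42.8 FPKM, and Myc, the driver of growth, from 118, 117 and 113 to 12.5, 13.6 and 14.1. Nr4a1, an immediate receptor-induced factor, rose from 57.8, 60.3 and 53.9 to 139, 134 and 140, and Nfatc1 rose from 42.6, 39.2 and 40.8 to 104, 97.8 and 99.3. Of 14 AP-1 and BATF factors 7 rose and 6 fell (8 and 6 on the TPM scale), near the shares over all genes, and 2 of the 14, Fosb included, passed the filter only through the combination. Batf fell from 101, 90.4 and 94.6 to 35.4, 31.3 and 38.2, and Fosb rose from 0.29, 0.18 and 0.27 to 5.47, 5.71 and 5.87. Of 15 genes of calcineurin, NFAT and FK506-binding proteins 5 rose and 8 fell, against 41.7% and 39.7% over all genes. On the TPM scale, by contrast, 7 rose and 5 fell. The drug's own binding protein FKBP12 is encoded by Fkbp1a, which fell from 265, 254 and 264 to 85.5, 88.7 and 88.0, whereas the calcineurin catalytic gene Ppp3ca rose from 2.57, 2.76 and 2.78 to 12.5, 13.8 and 10.4.

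Genes of resting and recirculating T cells were higher. Klf2, which keeps T cells quiescent, went from 2.25, 1.97 and 1.80 to 60.8, 67.4 and 52.1 FPKM (log2 fold change 4.73 ± 0.12, SE). S1pr1, the receptor for exit from lymphoid tissue, went from 8.22, 8.42 and 8.27 to 78.0, 73.7 and 77.8, and Tcf7, which encodes the stem-like factor TCF1, from 47.7, 48.2 and 47.1 to 352, 339 and 348. In the list of naive and homing genes 11 of 14 rose and 2 fell (12 and 2 on the TPM scale). Among those that fell was the chromatin organiser gene Satb1 (124, 124 and 127 to 37.7, 42.3 and 43.8). All 8 tested genes of the follicular helper list were higher, 2 of them tested only because of the combination, including Bcl6 (1.52, 1.26 and 1.43 to 24.0, 23.8 and 23.4) and Cxcr5 (4.19, 4.53 and 4.40 to 28.9, 26.2 and 27.1). B cells express Bcl6 and Cxcr5 too, and Cebpa in that list is a myeloid factor. Of 11 chemokine receptors tested, 2 of them only because of the combination, 8 were higher and 3 lower, with Ccr4 (64.9, 65.8 and 67.7 to 11.1, 11.04 and 12.1) and Ccr8 (38.5, 38.8 and 37.8 to 4.99, 4.21 and 3.89) lower and Cxcr6 (0.66, 0.89 and 0.76 to 55.1, 55.4 and 57.1) and Ccr6 (0.23, 0.24 and 0.32 to 22.1, 21.6 and 23.9) higher.

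Chemokine ligands also differed by gene. Of 18 listed 12 were tested, and 8 rose and 3 fell (9 and 2 on the TPM scale), with 5 of the 12 tested only because they were high in the combination. Cxcl16, a membrane-bound ligand of the receptor that Cxcr6 encodes, rose from 0.57, 0.81 and 0.68 to 95.4, 91.9 and 96.7 FPKM, and Ccl6, a myeloid chemokine, was at 0 in every Control sample and at 11.7, 10.04 and 8.30 with both drugs. Ccl5 and Ccl4, made by activated T cells, fell, Ccl5 from 253, 257 and 255 to 89.7, 90.7 and 90.7 and Ccl4 from 49.98, 39.8 and 46.6 to 6.59, 7.36 and 12.4.

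The growth and division programme fell. All 20 mitosis genes fell with a median of -2.72 and all 20 DNA replication genes with -1.96. The 17 nucleotide synthesis genes were all lower in the main test with a median of -1.21, and 16 were lower on the FPKM scale and 15 on the TPM scale. Top2a, the topoisomerase of dividing cells, went from 111, 121 and 118 to 16.2, 15.6 and 16.9 FPKM (log2 fold change -3.03 ± 0.047, SE), and Ube2c, which drives exit from mitosis, from 114, 112 and 112 to 11.1, 13.04 and 14.3. The ribonucleotide reductase gene Rrm2 went from 56.6, 53.6 and 56.2 to 13.3, 13.2 and 14.99. Among 14 cell cycle inhibitors and G1 cyclins 10 fell, including Ccnd2 (138, 134 and 139 to 50.6, 45.6 and 46.8). Cdkn1b, the inhibitor p27, rose from 39.7, 38.3 and 41.7 to 68.8, 80.8 and 65.9. Ccnd1, which T cells barely use, rose from 0.025, 0.034 and 0.070 to 4.68, 5.07 and 4.799, and it passed the filter only through the combination.

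The protein synthesis machinery fell with it. All 16 cytosolic ribosomal protein genes fell with a median of -1.62, and the 8 largest falls in FPKM among the genes tested were the elongation factor gene Eef1a1 and the ribosomal protein genes Rplp1, Rps18, Rpl13a, Rpl12, Rpl41, Rps9 and Rpl4. Eef1a1 went from 7780, 8140 and 7990 FPKM to 3641, 3655 and 3935, and Rps18 from 3450, 3449 and 3455 to 941, 1040 and 1044. All 20 ribosome biogenesis genes linked to MYC fell with a median of -0.91, though on the TPM scale 17 fell and 1 rose. The nucleolar gene Npm1 went from 937, 1153 and 1140 to 246, 242 and 175. All 20 tRNA synthetase genes fell with a median of -1.16 (19 on the TPM scale). Eif4ebp2, an inhibitor of cap-dependent translation, was the translation gene that rose in the main test, from 32.7, 27.3 and 31.6 to 69.1, 62.3 and 69.8. Many ribosomal protein genes have near-identical pseudogenes, and how reads shared with them were counted is not stated.

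Biosynthetic supply genes were lower as well. Of 20 genes of the ATF4 response and of serine and one-carbon supply, 18 fell with a median of -2.10. Asns, which makes asparagine, went from 86.9, 92.4 and 90.7 to 7.02, 6.91 and 7.88 FPKM (log2 fold change -3.82 ± 0.056, SE), and the serine synthesis gene Psat1 from 138, 145 and 141 to 14.6, 14.4 and 15.6. The large amino acid transporter gene Slc7a5 went from 101, 97.0 and 97.4 to 14.1, 11.7 and 13.6. The cystine transporter gene Slc7a11, also a target of NRF2, rose from 0.34, 0.27 and 0.30 to 9.26, 8.998 and 9.07. Slc7a11 passed the filter only through the combination and so had to be higher. All 20 sterol synthesis genes fell with a median of -1.12 (14 of them on the TPM scale), among them Fdps (111, 119 and 114 to 20.3, 21.1 and 20.3). In fatty acid synthesis 11 of 13 genes fell and 1 rose, and on the TPM scale 8 fell and 5 rose. Its largest falls were the desaturase genes Scd2 (265, 266 and 262 to 11.02, 10.6 and 11.9) and Fads2 (22.7, 23.7 and 22.6 to 0.56, 0.53 and 1.00).

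Mitochondrial genes went apart by genome. Of the 13 protein genes of the mitochondrial genome 12 rose with a median of 0.77, including the cytochrome b gene CYTB (918, 883 and 884 to 2475, 2389 and 2517 FPKM) and ND5, a subunit of complex I (307, 323 and 346 to 777, 798 and 788). COX1, a subunit of cytochrome c oxidase, and ND1 of complex I belong to the 8 largest rises in FPKM, COX1 from 5492, 5495 and 5441 to 7504, 7813 and 7813 and ND1 from 1059, 1056 and 1056 to 1960, 2218 and 1973. Of 18 respiratory chain genes in the nucleus 16 fell with a median of -0.65, and on the TPM scale 11 fell and 3 rose. The ATP synthase gene Atp5b went from 522, 536 and 525 to 275, 250 and 287. Of 16 genes of the TCA cycle 13 fell and 1 rose, and on the TPM scale 5 fell and 6 rose.

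Antioxidant genes of the NRF2 pathway rose, 12 of 14 in a list that includes the pentose phosphate enzymes, with a median of 1.41 (13 rose and 1 fell on the TPM scale). Nqo1, a quinone reductase and standard NRF2 target that passed the filter only through the combination, went from 0.29, 0.25 and 0.28 to 11.6, 14.6 and 14.7 FPKM (log2 fold change 5.44 ± 0.17, SE). The peroxiredoxin gene Prdx1 went from 83.8, 89.5 and 85.2 to 404, 400 and 440. Tkt, the transketolase of the pentose phosphate pathway, fell from 149, 151 and 145 to 74.2, 72.7 and 77.6. The autophagy receptor gene Sqstm1 rose from 105, 99.1 and 101 to 338, 328 and 327. Macrophages express these genes strongly too. Of 14 genes of the BCL2 family 6 rose and 5 fell, near the shares of 41.7% and 39.7% over all genes. On the TPM scale 10 rose and 3 fell. The survival gene Bcl2 fell from 54.4, 52.8 and 53.8 to 12.1, 11.6 and 10.4, and the death-promoting gene Bmf rose from 0.64, 0.63 and 0.66 to 5.73, 5.12 and 5.67.

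Interferon-stimulated genes were lower, 17 of 20 with a median of -2.28 (16 on the TPM scale). Isg15, a ubiquitin-like modifier, went from 189, 182 and 189 to 8.41, 7.24 and 5.34 FPKM (log2 fold change -4.90 ± 0.11, SE). Ifi44 went from 20.3, 19.1 and 20.1 to 0.54, 0.42 and 0.42. Ifit3 was among the 2 that rose, from 0.70, 1.14 and 1.21 to 2.72, 2.67 and 2.42. MHC class I genes and their peptide loading, many of them interferon-induced, gave 6 of 15 higher and 6 lower, shares near those over all genes, and 10 higher and 5 lower on the TPM scale. The immunoproteasome gene Psmb8 fell from 317, 314 and 313 to 150, 147 and 150, and H2-T22 fell from 222, 216 and 218 to 88.9, 87.0 and 95.2, whereas the nonclassical gene H2-Q6 rose from 154, 156 and 151 to 421, 402 and 423. Class I genes are near-identical paralogs, so their values are uncertain.

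**Figure D4:**
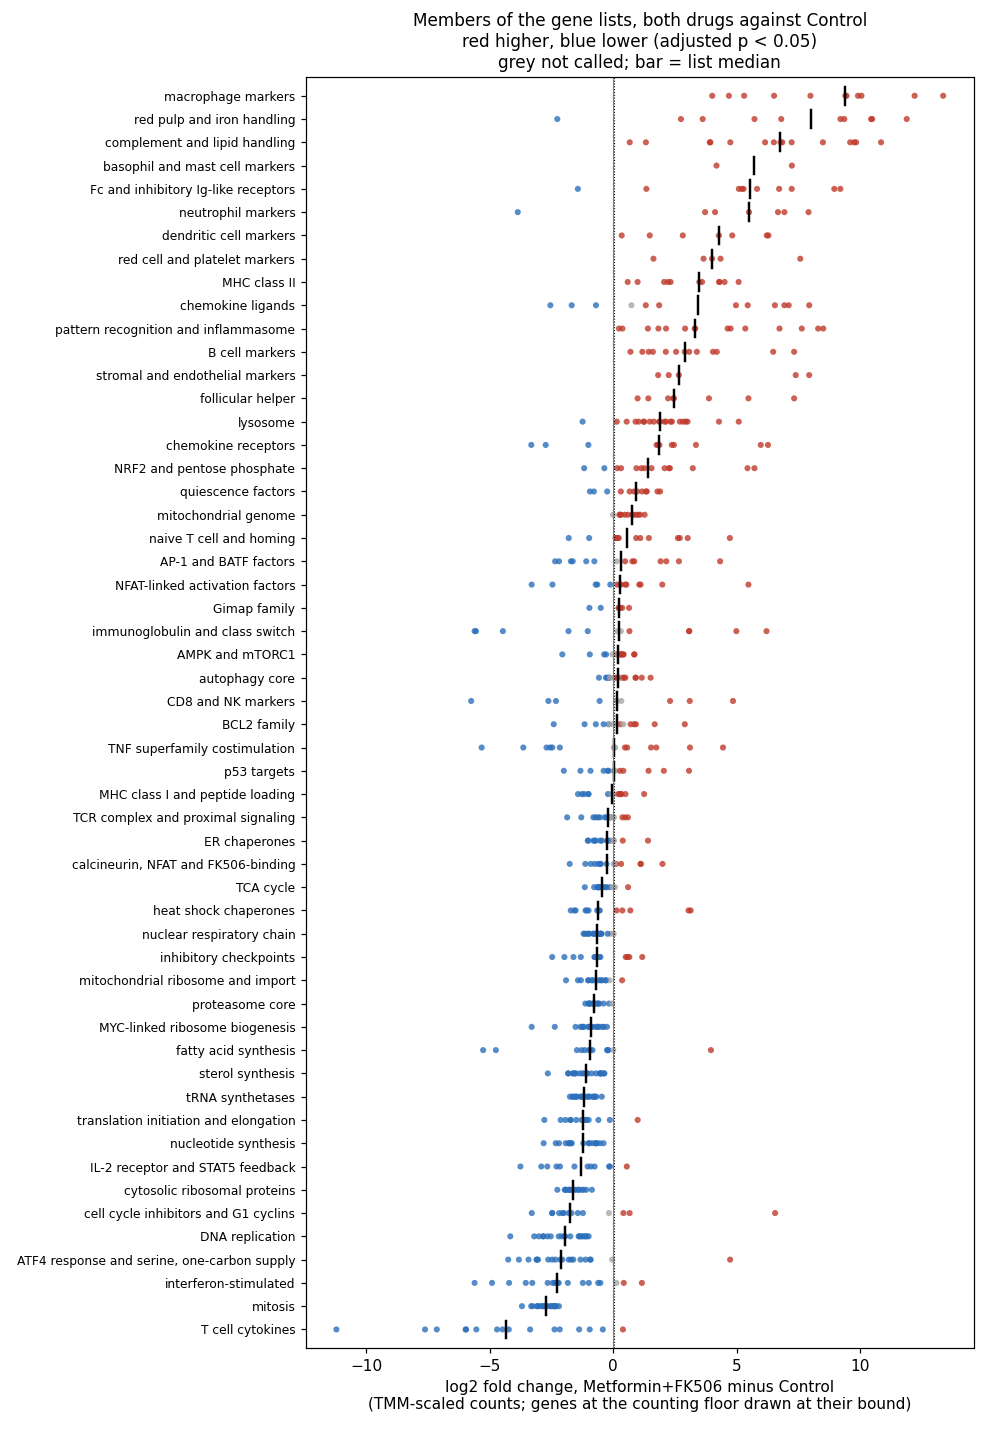
Log2 fold change, combination minus Control (horizontal axis, TMM-scaled counts, genes at the floor of 3 counts drawn at their bound), of each tested member of 54 gene lists (vertical axis, ordered by the list median, black bar). Red and blue points passed the test as higher or lower and grey points did not. Macrophage and iron handling lists stand at the top, and mitosis and T cell cytokines stand at the bottom with medians below -2.7, where 6 of the 16 cytokine genes had to be lower.

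The combination was also set against each single drug in a fit of all 12 samples. Against metformin alone 5961 genes were higher (41.1%) and 5566 lower (38.4%). Against FK506 alone 2230 genes were higher (15.4%) and 2408 lower (16.6%). Il24 and Ighe were at 0 with FK506 alone too, and Il13 had a mean of 1.67 FPKM there against 1.604 with both drugs. The values of the combination against Control and of FK506 against Control share the Control samples.

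Of the list members tested, the heat shock genes Hspa1b and Hspa1a lay farthest above FK506 alone. Hspa1a and Hspa1b encode the inducible chaperone HSP70. Hspa1b had 6.94, 7.07 and 6.61 FPKM in Control, a mean of 6.36 with FK506 and of 16.7 with metformin, and 68.0, 73.9 and 64.0 with both drugs. Hspa1a had 5.56, 6.04 and 5.58 in Control, a mean of 6.03 with FK506 and of 14.5 with metformin, and 53.2, 57.5 and 51.1 with both drugs. The differences from FK506 alone were 3.44 (edgeR adjusted p = 3.48e-14) and 3.17 (2.40e-13) on the log2 scale. These 2 genes are near-identical neighbours, so the counts of each are uncertain and their rises are not independent of each other. Of 14 heat shock chaperones 9 were higher than with FK506 alone and 1 was lower. Hsph1, a cochaperone of the same response, was higher than with FK506 alone by 0.70 (mean 32.5 FPKM there), with 35.9, 38.5 and 36.2 FPKM in Control and 67.3, 64.7 and 70.9 with both drugs. Against Control, by contrast, 9 of the 14 fell (8 on the TPM scale), including the constitutive Hspa8 (1438, 1506 and 1439 to 749, 740 and 805).
The promoter of Hspa1b is shown because, of the list members that passed the filter, none differed more from FK506 alone. The 250 bases before its RefSeq start lie at chr17:34959239-34959488 (GRCm38.p6, minus strand, 5′ to 3′), and capitals mark a heat shock element, spelled GAANNTTC and chosen after seeing the data.
Hspa1b: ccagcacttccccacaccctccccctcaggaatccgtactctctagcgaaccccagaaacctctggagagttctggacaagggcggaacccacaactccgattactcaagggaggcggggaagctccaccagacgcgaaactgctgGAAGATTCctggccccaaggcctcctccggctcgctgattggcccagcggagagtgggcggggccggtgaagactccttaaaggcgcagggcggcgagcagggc
The letters occurred once in this window and in 5.05% of all windows.

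Of the 20 genes of the ATF4 list 11 were higher than with FK506 alone and 2 were lower. Asns had a mean of 3.13 FPKM with FK506 and 7.27 with both drugs (difference 1.21), Chac1, which degrades glutathione, 0.46 and 1.68 (1.83), and the pseudokinase gene Trib3 3.46 and 7.57 (1.14). All 3 stayed far below Control, where Chac1 had 12.7, 11.9 and 12.2 FPKM and Trib3 43.3, 39.8 and 40.6. With metformin alone their means were 124 for Asns, 17.5 for Chac1 and 85.0 for Trib3.

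Division genes were lower again than with FK506 alone. All 20 mitosis genes were lower (median -0.86) and so were 16 of 20 DNA replication genes. Top2a had a mean of 29.0 FPKM with FK506 and 16.2 with both drugs (difference -0.83, edgeR adjusted p = 2.71e-10), and Ube2c 24.9 and 12.8 (-0.95). The cytosolic ribosomal protein genes gave 2 of 16 higher and 0 lower than with FK506 alone, and the T cell cytokine genes 5 of 16 higher and 0 lower (edgeR), against 15.4% higher and 16.6% lower over all genes. At an unadjusted p under 0.05 (edgeR), 4 ribosomal protein genes were higher and 1 lower, and 7 cytokine genes were higher and 0 lower.

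B cell markers were also lower than with FK506 alone, all 13 of them with a median of -0.999. Ms4a1 had a mean of 96.5 FPKM with FK506 and 32.3 with both drugs (-1.56), and the complement receptor gene Cr2 8.26 and 3.10 (-1.45). The switched isotype gene Ighg1 was lower by 3.24 (2.51 against 0.25). Of the 11 MHC class II genes 8 were lower and 2 were higher. Of 11 macrophage markers 2 were higher and 3 lower, against 15.4% and 16.6% over all genes. At an unadjusted p under 0.05 (edgeR) 6 were higher and 3 lower. Lyz2 was lower (981 against 539, -0.85), the inflammatory cytokine Il1b was lower (11.2 against 2.46, -2.21), and Il12b, the p40 chain shared by IL-12 and IL-23, was higher (5.26 against 15.5, 1.57).

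Single receptor and homing genes differed as well. Ccr7, which guides naive T cells to lymph nodes, was lower than with FK506 alone by -0.82 (493 against 277 FPKM). Cxcr3 and Cxcr6 were higher, by 0.71 (33.7 against 54.9) and 0.85 (31.3 against 55.8). Cd274, which encodes the checkpoint ligand PD-L1, was higher by 0.61 (88.0 against 134) and stood at 52.4, 51.9 and 51.5 in Control. Mx1, an interferon-induced antiviral gene, was lower by -2.19 (17.3 against 3.75). Of the 20 interferon-stimulated genes 12 were lower and 5 higher than with FK506 alone.

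**Figure D5:**
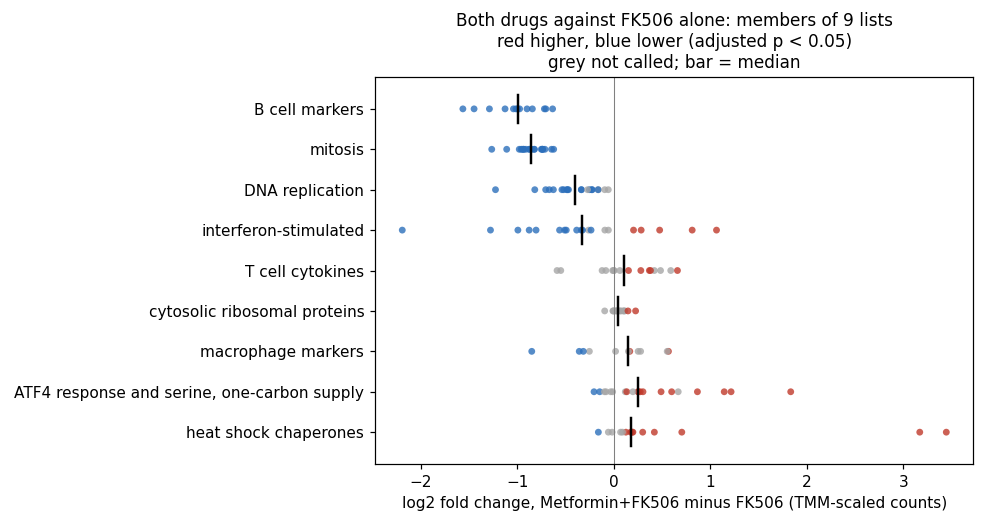
Log2 difference between the combination and FK506 alone (horizontal axis, TMM-scaled counts) for each tested member of 9 gene lists (vertical axis), with the list median as a black bar. Red and blue points passed the test as higher or lower and grey points did not. The 20 mitosis genes and the 13 B cell markers all lie below 0, and Hspa1a and Hspa1b lie at 3.17 and 3.44.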

How the data were processed

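The authors deposited whole-number read counts per gene without normalization, FPKM values and TPM values for each sample. The submitters' processing notes name bcl2fastq 2.20.0, Trimmomatic, HISAT2 2.1.0, StringTie 2.1.3b and build mm10 without giving their roles. The use of strand and the treatment of reads shared between paralogs or with pseudogenes are not given in the sources used here. Poly(A) RNA was sequenced. Groups came from the sample labels.

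For the 6 samples, the quasi-likelihood functions of edgeR 4.0.16 in R 4.3.3 (glmQLFit, then glmQLFTest, two-sided) were run on TMM-normalized counts, with Benjamini-Hochberg adjustment over the 14500 genes with FPKM of at least 0.5 in 3 samples and a threshold of 0.05. Library sizes were the full column totals. Differences from the single drugs were contrasts in the same fit of 12 samples. Alternatives were RLE and upper-quartile scaling, DESeq2 1.42.0, limma 3.58.1 on log2(FPKM + 1), log2(FPKM + 0.1) and log2(TPM + 1), other filters, all 12 samples, a replicate block and each sample left out. The scripts were tested on simulated data.

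The 54 gene lists named 782 entries, each present among the deposited genes (2 through older symbols), and 739 passed the filter. The part of the series, its lists and its tests were chosen with earlier results of these data known. Named genes were the 10 largest rises and 10 largest falls in log2 fold change and the 8 of each in FPKM, among called genes whose groups do not overlap and whose higher mean reaches 10 FPKM, and 2 to 4 members of each list described. More were named for some lists, after their values were seen. The floor was reached where no library of a group had more than 3 counts for a gene, and folds against it were computed against 3 counts per library, which covers counting error only. Some items withheld for evaluation are not reported here. Promoters came from RefSeq (GRCm38.p6), and motifs were searched on both strands. Between samples with the same replicate number, deviations from the group means correlated at 0.038, -0.025 and -0.047, so the numbers were not taken as pairs.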

Additional observations from a re-analysis of the deposited data

How the results depend on the processing

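The 184 gene-level results of the text that were recomputed (against Control and against FK506 alone) kept their direction and their call in 2719 of 2725 values obtained under the alternatives. The exceptions were Ighg2b and Ighg3, called higher than Control on log2(TPM + 1) (0.56 and 0.55), Col1a1, whose difference from FK506 alone lost its call without the third FK506 sample (-0.79), and Pecam1, whose difference from FK506 alone was near 0 and ran from -0.027 to 0.033 when single samples were left out. The number of genes changed was 11809, and 5313 when a log2 fold change of at least 1 was also required (2801 higher and 2512 lower). On log2(TPM + 1), 3522 genes were lower against 5760 in the main test. The other settings kept the 3 counts within 1.5 times. Leaving out each sample gave 11214 to 11761 genes changed, 5740 to 6013 higher and 5474 to 5756 lower. It gave 682 to 697 list entries called against 698, and 3660 to 4736 genes against FK506 alone (main count 4638) and 11102 to 11432 against metformin alone (11527). Without any filter 13745 of 25748 genes were called. With the replicate block, which the deviations of the samples do not bear out as a pairing, 11527 genes were called against Control, 4315 against FK506 and 11399 against metformin. Of 2120 counts over single lists 1998 stayed within 1.5 times and 122 did not. Genes at or near 0 in a group have fitted folds that depend on few reads. Leaving out a single sample moved the fitted fold of Cebpa, Cth, Il4, Il5, Ly6g, Lyz2, Marco, Osr2 and Serpinf1 by more than 1.5 times, for example that of Marco from 12.2 to 16.4 on the log2 scale without the first Control sample.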

Other observations

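Gene classes moved unequally between Control and the combination. Of 197 small nucleolar RNA genes tested 90 were lower and 4 higher (median -0.80 on the log2 scale, and 76 lower and 16 higher on the TPM scale). The shares were 45.7% lower and 2.03% higher, against 39.7% and 41.7% over all genes. Poly(A) RNA was sequenced, and how well it captures these small RNAs was not tested. These RNAs are made largely from introns of ribosomal protein and translation genes and guide the modification of ribosomal RNA. Of 816 pseudogenes 567 were lower and 74 higher (median -1.18, and 480 and 144 on the TPM scale), and of 760 long noncoding RNA genes 373 were higher and 193 lower (median 0.48, and 452 and 160 on the TPM scale). Protein-coding genes, 11972 of those tested, gave 5229 higher and 4828 lower on TMM-scaled counts and 7413 higher and 2736 lower on the TPM scale. How reads shared between pseudogenes and their parent genes were counted is not given, so the pseudogene values are uncertain.

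A few genes outside the lists, chosen after their values were seen, differed clearly between both drugs and FK506 alone. Igfbp4, which binds insulin-like growth factors, had 25.1, 22.7 and 24.6 FPKM in Control, a mean of 5.23 with FK506 and 33.2, 35.4 and 41.5 with both drugs (difference from FK506 2.84 on the log2 scale, edgeR adjusted p = 2.40e-13). Jdp2, an AP-1 repressor, had 6.54, 6.15 and 6.55 in Control, a mean of 7.04 with FK506 and 25.7, 25.4 and 24.8 with both drugs (1.84, 3.21e-12). Gls2, a glutaminase, had 10.9, 11.8 and 10.8 in Control, a mean of 5.99 with FK506 and 0.51, 0.70 and 0.98 with both drugs (-3.02, 2.53e-10). Ido1, which degrades tryptophan, had 1.84, 1.76 and 1.69 in Control, a mean of 23.02 with FK506 and 5.09, 4.72 and 4.56 with both drugs (-2.25, 6.89e-11). Egfl7, an endothelial gene, had a mean of 3.996 FPKM with FK506 and 11.5 with both drugs (1.53). Among the listed markers of endothelium and stroma, Cdh5 had 3.55 and 9.66 (1.46), Pecam1 had 38.8 and 38.5 (edgeR adjusted p = 0.99), and Col1a1 was lower with both drugs (-1.03).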
